A study of Mus musculus with 36 samples.

Results

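The genes examined here encode the WAVE regulatory complex: Cyfip1, Cyfip2, Nckap1, Wasf1, Wasf2, Wasf3, Abi1 and Abi2. They were taken by name from the count table, which holds 16614 genes, and all 8 were found and passed the filter on low counts in every comparison. The complex holds together a CYFIP protein, a NCKAP protein, an ABI protein, a WAVE protein and a small subunit, and keeps WAVE inactive until the GTPase Rac binds to CYFIP. Active WAVE then switches on the Arp2/3 complex, which starts branched actin filaments, and in neurons this machinery is known for its work in growth cones and dendritic spines. CYFIP1 is also known as a binding partner of FMRP, the protein made by Fmr1, and of the cap-binding protein eIF4E.

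Ribosome protected fragments (RPFs) and RNA were sequenced from brains of C57BL/6 mice at 5 days of age, either wild type (WT) or with a knockout of Fmr1 (FMR1 KO), with 10 brains pooled for each preparation. Ribosomes from the homogenate were run through a sucrose gradient, and RPFs were made by nuclease from ribosome clusters that sedimented to the pellet and from lighter clusters in fraction 5/6, while RNA-seq was of whole brain. The standard nuclease series was prepared with 10 mM MgCl2 and a low nuclease series with 2.5 mM MgCl2, and each of the 12 groups of genotype, library type and nuclease series had 3 libraries. Abundance below means pellet RPFs of FMR1 KO against WT, occupancy means RPFs against RNA-seq, and enrichment means pellet RPFs against fraction 5/6 RPFs. The main comparisons use the 18 standard libraries.

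The standard RPF libraries held 6765065 to 40174168 counts, of which a single gene, Cdk8, took 36.7% to 63.4%, and levels are therefore given as CPM, with each count scaled to the total of its library without Cdk8. The low nuclease RPF libraries held 23634940 to 62310787 counts, and the standard RNA-seq libraries 112249206 to 147216378. Fmr1 was measured at 64.6 to 67.8 CPM in the WT pellet and 4.79 to 4.93 CPM in the FMR1 KO pellet, and at 60.6 to 71.9 CPM in WT RNA-seq against 16.4 to 18.1 CPM in FMR1 KO RNA-seq. In fraction 5/6 it was at 5.98, 6.82 and 10.7 CPM in FMR1 KO and at 100.1, 68.6 and 3.17 CPM in WT. The library labelled WT fraction 5/6 replicate 3 thus went against its label, and over all genes it correlated with the mean of the WT pellet libraries at r = 0.975, with that of the FMR1 KO pellet libraries at 0.974 and with that of its own group at 0.943. It is named below as the library labelled so, and several values that it moves are given with and without it. Of the low nuclease RNA-seq libraries, 3 had 82.4% to 85.0% of their counts on 10 genes. Neuron markers were above 1 CPM in the standard libraries of each type (6 of 6), and the liver marker found in the table was below 1 CPM in every standard library.

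Cyfip1 (ENSMUSG00000030447) lies at chr7:55841745-55932602 on the plus strand of GRCm38, and its paralogue Cyfip2 (ENSMUSG00000020340) at chr11:46193850-46312859 on the minus strand. Nckap1 (ENSMUSG00000027002), the partner on which CYFIP folds into the complex, lies at chr2:80500512-80581380 on the minus strand. The genes of the WAVE proteins that activate Arp2/3 are Wasf1 (ENSMUSG00000019831) at chr10:40883475-40938570, Wasf2 (ENSMUSG00000028868) at chr4:133130505-133199756 and Wasf3 (ENSMUSG00000029636) at chr5:146384985-146473615, all on the plus strand. Those of the ABI adaptors are Abi1 (ENSMUSG00000058835) at chr2:22940073-23040241 on the minus strand and Abi2 (ENSMUSG00000026782) at chr1:60409619-60481158 on the plus strand. Wasf3 lies on the same chromosome as Cdk8 (chr5:146231230-146302874). Reads of 28 bases could not all be told apart from other genes: 2.91% of the positions of the Cyfip1 transcript were shared with Gm44616 and 0.37% of those of Wasf3 with 52 genes, against 0% for the other members.

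Per length of the transcript listed in the count table, whole brain held most Abi2 mRNA among the members and least Cyfip1 and Wasf2 mRNA. The listed Abi2 transcript is 1671 bases long with coding sequence from base 1, and thus has no 5′ UTR. In mean CPM, which uses no length, Cyfip2 (516) and Nckap1 (390) were above Abi2 (366) in WT RNA-seq. In WT RNA-seq, the median level per kilobase of transcript was 220.3 CPM for Abi2, 97.8 for Wasf1, 87.3 for Cyfip2, 87.0 for Nckap1, 47.7 for Abi1, 37.1 for Wasf3, 20.5 for Wasf2 and 20.3 for Cyfip1. In that order, Wasf1 overlapped with Cyfip2, Cyfip2 with Nckap1, and Wasf2 with Cyfip1, while the libraries of the other neighbours were apart. The order was another in the WT pellet, where levels are given per kilobase of coding sequence. Wasf1 (159.7 CPM per kilobase), Cyfip2 (152) and Nckap1 (145) stood on top with overlap between neighbours, followed by Abi2 (95.2), Abi1 (55.1), Wasf3 (47.7), Cyfip1 (44.1) and Wasf2 (5.74). The libraries of Wasf3 and Cyfip1 overlapped there, and those of Wasf2 lay below all others. Whether a level in these whole brains reflects fewer cells or less RNA per cell cannot be told apart.

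**Figure D1:**
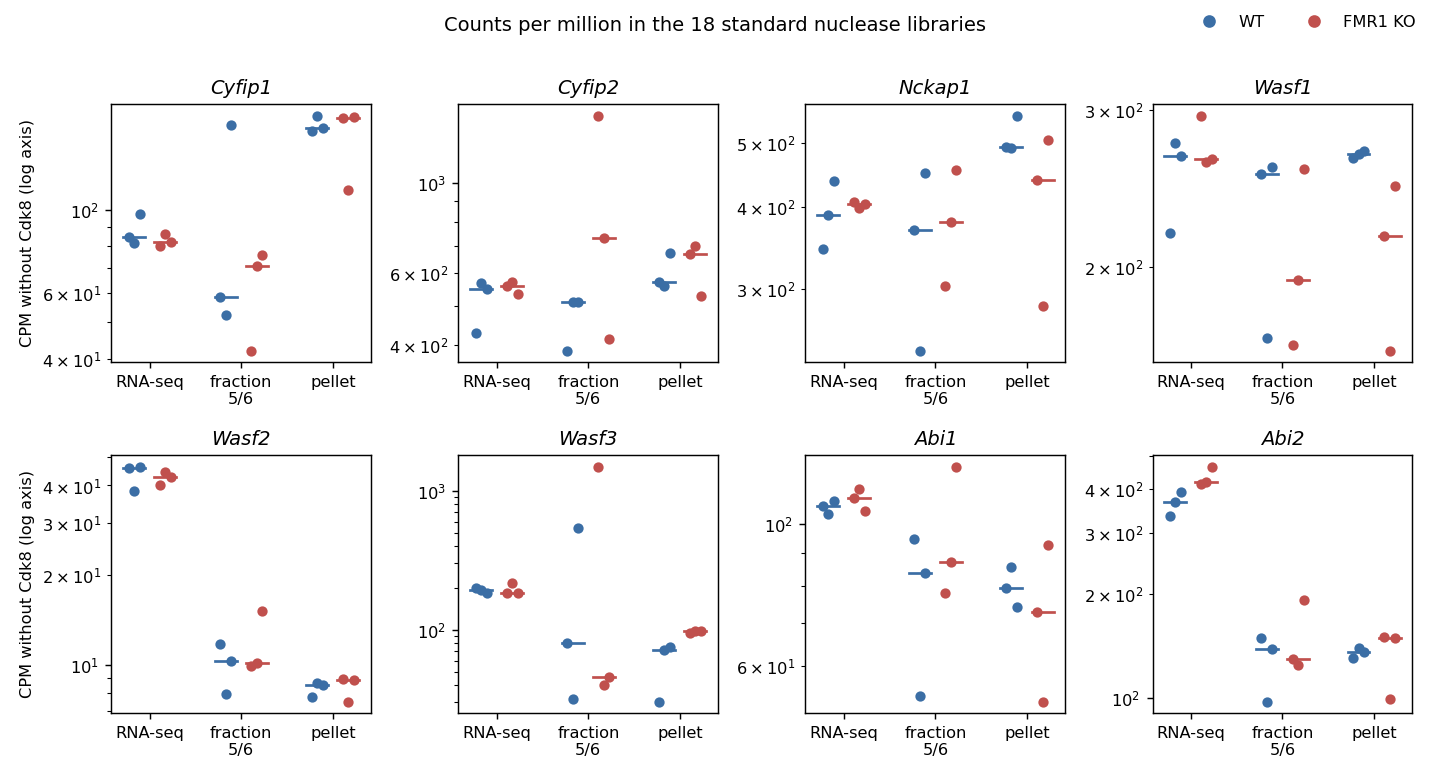
Levels of the 8 genes in the 18 standard nuclease libraries, as CPM of the counts without Cdk8 on a log axis with its own range for each gene. Points are libraries, bars are medians of 3, blue is WT and red is FMR1 KO; Wasf3 reached 1480.2 CPM in a single fraction 5/6 library.

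Pellet occupancy was compared first, since it shows whether an mRNA had more or fewer RPFs in the pellet than its RNA level would give. A gene is called where its adjusted p is under 0.05. In WT, Cyfip1, Cyfip2, Nckap1, Wasf1 and Abi1 were higher in pellet RPFs than in RNA-seq and Wasf2 was lower, while Wasf3 and Abi2 did not pass the test. In FMR1 KO the same genes were called in the same direction, and Abi2 was lower as well. This is 6 of 8 in WT, where 65.5% of the 16139 genes tested were called (31.2% higher and 34.3% lower), and 7 of 8 in FMR1 KO, where 67.1% were called (31.9% higher and 35.2% lower). Most genes were thus called, and being called sets the members little apart. The median of the members was 0.99 in WT and 0.60 in FMR1 KO on the log2 scale, against -0.11 and -0.07 over all genes. These calls rest on p-values of edgeR's quasi-likelihood F test, adjusted by Benjamini-Hochberg over the whole table, and DESeq2 called the same number.

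The sign of these values depends on the scaling, since RPF and RNA-seq libraries differ in makeup. With library size alone in place of TMM (trimmed mean of M values), the median of all genes moved to -2.13 in WT and -2.33 in FMR1 KO, and 7 of 8 members were then called lower in both genotypes, against 87.7% of genes in WT and 85.8% in FMR1 KO. Relative to the median of all genes, the 2 scalings differed by at most 0.11 for any member in the pellet and 0.45 in fraction 5/6. The occupancy values below are therefore to be read relative to the other genes. Library size alone keeps Cdk8 in the totals, at 36.7% to 63.4% of standard RPF counts and 0.0049% to 0.0338% of standard RNA-seq counts. In mean CPM, without Cdk8, the WT pellet was above RNA-seq for Cyfip2 (600 against 516), Nckap1 (510 against 390) and Wasf1 (267 against 253). Cyfip1 was higher too in WT, and Wasf2, Wasf3, Abi1 and Abi2 were lower. In FMR1 KO, Wasf1 was also lower in mean CPM (208 against 274).

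Cyfip1 had the highest pellet occupancy of the members in the standard libraries, while Nckap1 was higher in the low nuclease libraries (2.27 against 1.57 in WT and 2.38 against 1.74 in FMR1 KO). Its RNA-seq level was 84.6, 81.8 and 97.6 CPM in WT and 80.0, 86.6 and 82.2 CPM in FMR1 KO. Its pellet level was 163, 179 and 166 CPM in WT and 177, 113 and 178 CPM in FMR1 KO. Every pellet library was above every RNA-seq library, and FMR1 KO replicate 2 was the lowest in the pellet. The log2 fold change was 2.10 (SE 0.11, n = 3 and 3, adjusted p = 8.05e-06, edgeR), or 4.29-fold on the TMM scale, in WT and 2.00 (SE 0.10, adjusted p = 1.14e-05) in FMR1 KO, against 0.07 and -0.23 with library size alone. The values ranged from 2.06 to 2.17 in WT and from 1.90 to 2.08 in FMR1 KO when each library was left out in turn.

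Cyfip2 had levels of 429, 569 and 549.9 CPM in WT RNA-seq and 571, 559 and 672 CPM in the WT pellet. In FMR1 KO it was at 557, 572 and 533 CPM in RNA-seq and at 668, 700.0 and 527 CPM in the pellet. The CPM ranges of pellet and RNA-seq overlapped in both genotypes. On the TMM scale the log2 fold change was 1.39 (SE 0.18, adjusted p = 0.000391, edgeR) in WT and 1.36 (SE 0.26, adjusted p = 0.00310) in FMR1 KO, and it was -0.66 and -1.01 with library size alone.

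Nckap1 was at 345, 389 and 437 CPM in WT RNA-seq and at 492, 490.05 and 548 CPM in the WT pellet, where the groups did not overlap. In FMR1 KO it was at 407, 398 and 403 CPM in RNA-seq and at 439.5, 283 and 505 CPM in the pellet, and replicate 2 lay below the RNA-seq libraries. Its log2 fold change was 1.55 (SE 0.16, adjusted p = 9.57e-05, edgeR) in WT and 1.11 (SE 0.13, adjusted p = 0.000262) in FMR1 KO, and -0.49 and -1.10 with library size alone.

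The WAVE genes went separate ways in the pellet. Wasf1, the WAVE gene with the most RNA per length here, was at 265, 268 and 269.8 CPM in the WT pellet and 218, 276 and 266 CPM in WT RNA-seq, and its CPM groups overlapped. In FMR1 KO it was at 217, 161 and 247 CPM in the pellet and at 295, 262 and 264 CPM in RNA-seq, where every pellet library was below every RNA-seq library in CPM. Its log2 fold change on the TMM scale was 1.24 (SE 0.14, adjusted p = 0.000167, edgeR) in WT and 0.71 (SE 0.11, adjusted p = 0.00106) in FMR1 KO, and it turned to -0.79 and -1.53 with library size alone.

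Wasf2 was at 45.8, 38.4 and 46.1 CPM in WT RNA-seq and at 7.76, 8.67 and 8.56 CPM in the WT pellet. In FMR1 KO it was at 40.2, 44.3 and 42.6 CPM in RNA-seq and at 8.95, 7.50 and 8.89 CPM in the pellet. The pellet libraries lay far below the RNA-seq libraries without overlap, and Wasf2 was lower under both scalings. Its log2 fold change was -1.23 (SE 0.13, adjusted p = 0.000104, edgeR) in WT and -1.21 (SE 0.12, adjusted p = 0.000136) in FMR1 KO. Summed CPM of some markers moved in the same direction: the 5 microglia markers fell from 162 to 182 CPM in RNA-seq to 78.4 to 117 CPM in the pellet, the 5 oligodendrocyte lineage markers from 236 to 534 CPM to 57.2 to 107 CPM (4 of 5 above 1 CPM there), and the 4 red blood cell markers from 218 to 513 CPM to 3.99 to 17.2 CPM. The 3 endothelium markers were at 5.54 to 8.71 CPM in RNA-seq and 1.80 to 4.87 CPM in the pellet (1 of 3 above 1 CPM there). The ranges overlapped for the 5 astrocyte and radial glia markers (782 to 1256 CPM in RNA-seq and 832 to 1153 CPM in the pellet) and for neuron markers (6385 to 7501 CPM and 5341 to 8096 CPM). These sums are in CPM, a scale on which Abi1, called higher below on the TMM scale, was lower too. No marker of these 6 lists was at 0 in all libraries of a type, and their part in the values of the members was not tested.

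Wasf3 varied more between libraries than the other members. It was at 200.03, 193 and 183 CPM in WT RNA-seq and 30.3, 71.7 and 74.9 CPM in the WT pellet, and at 185, 218 and 185 CPM in FMR1 KO RNA-seq and 94.0, 97.8 and 98.1 CPM in the FMR1 KO pellet. Pellet and RNA-seq CPM did not overlap, yet the log2 fold changes of -0.55 (SE 0.31, adjusted p = 0.154, edgeR) in WT and 0.12 (SE 0.19, adjusted p = 0.579) in FMR1 KO did not pass the test on the TMM scale. Without WT pellet replicate 3 the WT value was -0.85 and passed (adjusted p = 0.0357). It also passed as lower in WT with library size alone (-2.57), in the low nuclease libraries (-4.33), with low nuclease RPFs against standard RNA-seq (-1.65) and in the low nuclease libraries without the RNA-seq libraries led by 10 genes (-1.01). With library size alone the FMR1 KO value was -2.19.

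The ABI adaptors differed too. Abi1 was at 107, 104 and 109 CPM in WT RNA-seq and 79.6, 85.6 and 74.3 CPM in the WT pellet, and Abi2 at 336, 368 and 394 CPM in WT RNA-seq and 130.4, 139.9 and 136 CPM in the WT pellet. In FMR1 KO, Abi1 was at 110.0, 113 and 105 CPM in RNA-seq and 72.9, 52.8 and 92.9 CPM in the pellet, and Abi2 at 415, 421 and 464 CPM in RNA-seq and 150.5, 99.2 and 149 CPM in the pellet. For both genes every pellet library was below every RNA-seq library in CPM. On the TMM scale Abi1 was higher, by 0.74 (SE 0.09, adjusted p = 0.000299, edgeR) in WT and 0.50 (SE 0.11, adjusted p = 0.00593) in FMR1 KO, but -1.29 and -1.71 with library size alone. Its call was lost in both genotypes with low nuclease RPFs against the standard RNA-seq libraries (0.12 in WT and 0.14 in FMR1 KO, adjusted p of 0.288 and 0.282), where 64.4% and 61.2% of genes were called. Abi2 was at -0.28 (SE 0.11, adjusted p = 0.0652) in WT and was lower by -0.61 (SE 0.10, adjusted p = 0.00172) in FMR1 KO, where library size alone gave -2.85. Abi2 passed as lower in WT too with library size alone (-2.31) and with low nuclease RPFs against standard RNA-seq (-0.50, adjusted p = 0.00944, edgeR).

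**Figure D2:**
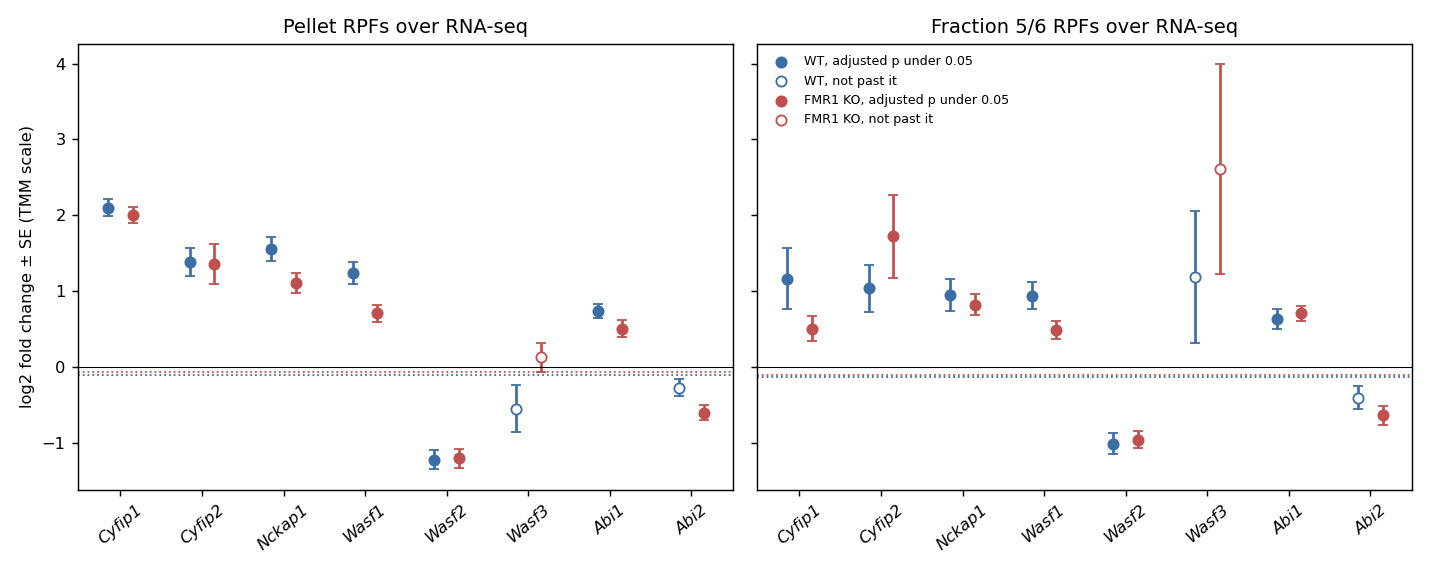
Occupancy of the 8 genes in the pellet (left) and fraction 5/6 (right), as log2 fold change of RPFs over RNA-seq on the TMM scale with bars of 1 SE, 3 libraries against 3. Filled points passed the test and dotted lines mark the median of all genes; with library size alone the positive values of Cyfip2, Nckap1, Wasf1 and Abi1 turn negative in both panels, that of Cyfip1 does except in the WT pellet, where it is 0.07, and the positive values of Wasf3 turn negative except in FMR1 KO fraction 5/6 (0.34), and that in WT fraction 5/6 is -0.57 without the library labelled WT fraction 5/6 replicate 3.

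RPFs come from coding sequence and RNA-seq reads from the whole transcript, so the coding length of the members was set beside their occupancy. It is 3759 bases for both Cyfip1 and Cyfip2, 3384 for Nckap1, and between 1425 (Abi2) and 1677 (Wasf1) for the other 5 genes. Across the 8 members the Spearman correlation of WT pellet occupancy with coding length was 0.77, and over 15953 genes it was 0.37. With the share of the transcript that is coding the correlation was weaker, at 0.36 across the members and 0.27 over all genes. The points share the same libraries and genes are not independent replicates, and the part of length or coding share in the calls was not tested.

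The ratio of paralogues within a library needs no scaling between libraries, and was compared between library types over both genotypes, with 6 libraries a side. Against RNA-seq it still holds the difference in coding share: on the listed transcripts 89.97% of Cyfip1 and 59.69% of Cyfip2 is coding, a ratio of 1.51, and that ratio is 0.93 for Wasf1 over Wasf2, 2.13 for Wasf1 over Wasf3 and 0.76 for Abi1 over Abi2. Cyfip2 had more counts than Cyfip1 in all 18 libraries. The count ratio of Cyfip1 over Cyfip2 had medians of 0.178 in WT and 0.151 in FMR1 KO RNA-seq, and of 0.286 and 0.265 in the pellet. It was 1.64-fold higher in the pellet (log2 difference 0.71, exact permutation test, two-sided p = 0.0065, adjusted p = 0.0195 over 12 tests), with overlap of a single FMR1 KO pellet library (0.162) with the RNA-seq range. Wasf1 over Wasf2 was at 4.76 to 7.34 in RNA-seq and 21.4 to 34.0 in the pellet, 4.55-fold higher without overlap (log2 difference 2.19, exact permutation p = 0.0022, the smallest possible, adjusted p = 0.0087). Wasf1 over Wasf3 (log2 difference 1.25) and Abi1 over Abi2 (1.06) were likewise higher in every pellet library than in every RNA-seq library, both with the same p and adjusted p by that exact test. The folds of 1.64 (Cyfip1 over Cyfip2) and 2.38 (Wasf1 over Wasf3) thus stand beside coding share ratios of 1.51 and 2.13, and those of 4.55 (Wasf1 over Wasf2) and 2.09 (Abi1 over Abi2) beside ratios below 1, and the part of coding share was not tested. The coding share of Abi2 (85.28%) is that of a listed transcript of 1671 bases without a 5′ UTR. The ratio of 0.76 holds for that transcript only. In the low nuclease libraries the Wasf1 over Wasf3 difference did not pass (3.00, exact permutation, adjusted p = 0.174).

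Between pellet and fraction 5/6, the Wasf1 over Wasf2 ratio was 1.41-fold higher in the pellet (log2 difference 0.49, exact permutation p = 0.0130, adjusted p = 0.0312). It did not pass without any one of the FMR1 KO fraction 5/6 libraries (exact permutation, adjusted p of 0.052 to 0.057) and was 0.16 in the low nuclease libraries. The Cyfip1 over Cyfip2 difference was 1.16 (exact permutation, adjusted p = 0.0649), and it passed without the library labelled WT fraction 5/6 replicate 3 (1.46, adjusted p = 0.0130) and in the low nuclease libraries (0.68, adjusted p = 0.0065). Without FMR1 KO fraction 5/6 replicate 1 it was 0.75 (exact permutation, adjusted p = 0.108). Wasf1 over Wasf3 (0.93, 0.56 without the library labelled WT fraction 5/6 replicate 3 and 0.14 without FMR1 KO fraction 5/6 replicate 1) and Abi1 over Abi2 (-0.13) did not pass (exact permutation, adjusted p of 0.465 and 0.141). Abi1 over Abi2 passed as lower in the pellet in the low nuclease libraries (-0.43, exact permutation, adjusted p = 0.0364).

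**Figure D3:**
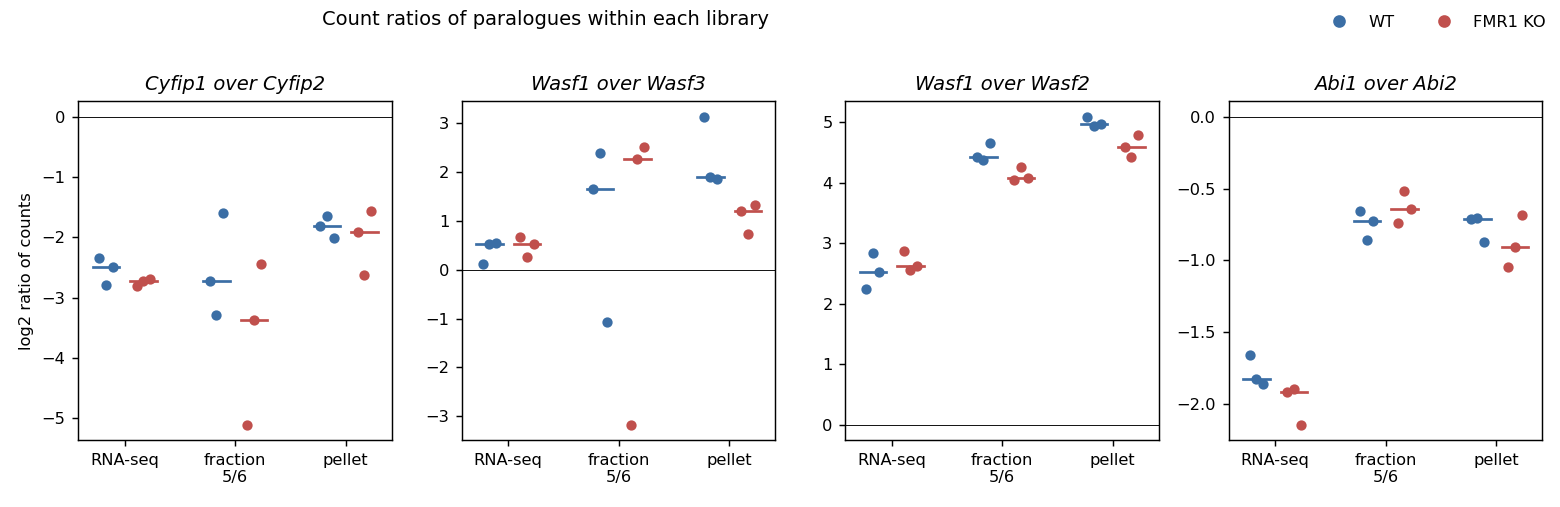
Log2 ratio of the counts of paralogous genes in each of the 18 standard libraries, with a bar at the median of each group of 3. Blue is WT and red is FMR1 KO; Wasf1 over Wasf2 and Abi1 over Abi2 lie higher in all 6 pellet libraries than in all 6 RNA-seq libraries.

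Enrichment was compared next, as it sets heavy against light ribosome clusters. Of the 8 genes, Cyfip1 stood out in FMR1 KO, with 177, 113 and 178 CPM in the pellet against 42.0, 70.9 and 75.9 CPM in fraction 5/6, and every pellet library was above every fraction 5/6 library. Its log2 fold change was 1.61 (SE 0.18, 3.05-fold, adjusted p = 0.00420, edgeR). It was the only member called there, where 11.5% of genes were called (9.11% higher and 2.41% lower), and its value was between 1.48 and 1.84 and passed with each library left out. With library size alone, where the median of all genes was -0.60, it was 1.06 and did not pass, while DESeq2 called Nckap1 too. Over all genes tested, the Spearman correlation of enrichment with coding length was 0.58 in FMR1 KO and 0.42 in WT. Across the members it was 0.26 and 0.72. Cyfip1 and Cyfip2 have the longest coding sequence of the members (3759 bases), and the part of length in enrichment was not tested. In WT, edgeR called 0 of 8 members (0.023% of genes, 3 in all), 1 had an unadjusted p under 0.05 (Nckap1, 0.56), and DESeq2 called 0.

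The WT value of Cyfip1 turned on a single library. Fraction 5/6 held it at 58.4 and 52.4 CPM in WT replicates 1 and 2 and at 169 CPM in the library labelled WT fraction 5/6 replicate 3, which lies within the range of the WT pellet (163, 179 and 166 CPM). The log2 fold change was 0.89 (SE 0.42, adjusted p = 0.643, edgeR) with that library and 1.52 (SE 0.17, adjusted p = 0.0113) without it, where 9.64% of genes were called (7.78% higher). The difference of enrichment between the genotypes was 0.75 (SE 0.49, adjusted p = 0.896) with it and 0.11 (SE 0.26, adjusted p = 0.974) without it. For this difference edgeR called 0 of 8 members (0% of genes), 0 had an unadjusted p under 0.05 and DESeq2 called 0. Wasf3 was at -0.54 (SE 1.88) for it, and ranged from -2.44 to 3.44 with each library left out in turn.

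In the low nuclease libraries, a second set made at lower MgCl2 and with less nuclease, Cyfip1 was at 177, 161 and 166 CPM in the WT pellet and 41.6, 79.2 and 47.8 CPM in WT fraction 5/6. In FMR1 KO it was at 167, 148 and 151 CPM in the pellet and 58.5, 58.8 and 75.6 CPM in fraction 5/6. All 6 pellet libraries were above all 6 fraction 5/6 libraries. The log2 fold change was 1.69 (SE 0.25, adjusted p = 0.0109, edgeR) in WT and 1.47 (SE 0.16, adjusted p = 0.0111) in FMR1 KO. There 3 of 8 members were called in WT (22.9% of genes called, 14.3% higher), with Cyfip2 at 1.04 and Wasf2 at 0.38, and 3 of 8 in FMR1 KO (20.6% called, 8.82% higher), with Cyfip2 at 0.79 and Nckap1 at 0.67. The sign of Cyfip2 in FMR1 KO and that of Wasf2 in WT were opposite in the standard libraries (-0.26 and -0.26), where neither passed.

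**Figure D4:**
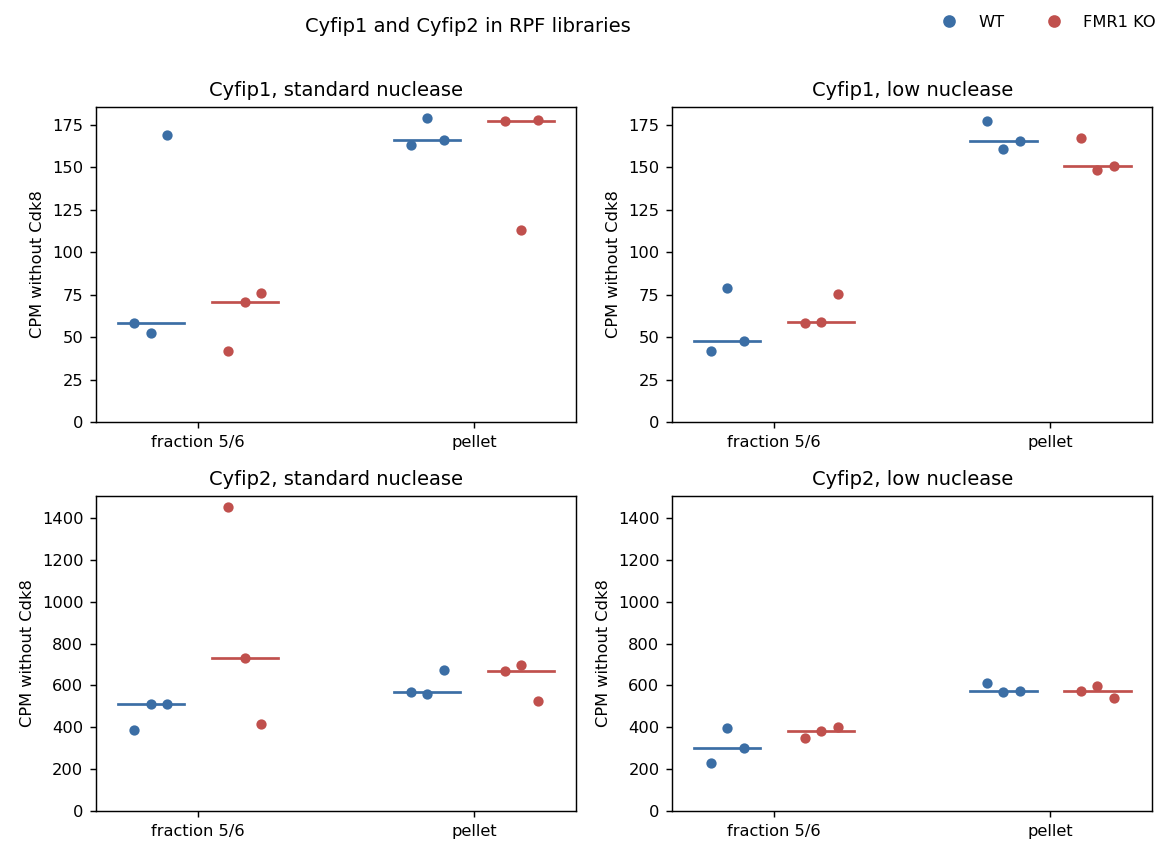
Levels of Cyfip1 (top) and Cyfip2 (bottom) as CPM of the counts without Cdk8 in fraction 5/6 and pellet RPFs, in standard (left) and low nuclease (right) libraries. Points are libraries and bars are medians of 3; the lone high WT point of Cyfip1 in standard fraction 5/6, at 169 CPM, is the library labelled WT fraction 5/6 replicate 3.

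edgeR called no enrichment of the other members in the standard libraries. Nckap1 was at 369, 242 and 450.3 CPM in WT fraction 5/6 and 304, 379.5 and 454 CPM in FMR1 KO fraction 5/6, and its log2 fold change was 0.56 in WT and 0.39 in FMR1 KO. Wasf1, at 164 to 259 CPM in fraction 5/6, had values of 0.26 and 0.33, and Abi1, Abi2 and Wasf2 lay between -0.26 and 0.14. Cyfip2 was at 388, 510.4 and 511 CPM in WT fraction 5/6 and at 1454, 733 and 414 CPM in FMR1 KO, where replicate 1 was the highest of all standard libraries. Its values were 0.30 in WT and -0.26 in FMR1 KO, and 0.52 in FMR1 KO without that replicate.

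Wasf3 surged in a few RPF libraries. In fraction 5/6 it was at 80.8 and 31.7 CPM in WT, at 543 CPM in the library labelled WT fraction 5/6 replicate 3, and at 1480.2, 40.1 and 45.5 CPM in FMR1 KO. Its enrichment of -2.37 in FMR1 KO did not pass, and without FMR1 KO fraction 5/6 replicate 1 it was 1.63 (SE 0.24, adjusted p = 0.0292, edgeR). With library size alone it was -2.53 and passed as lower (adjusted p = 0.0386), as did 0.756% of genes. In WT it was -1.78, and 0.10 without the library labelled WT fraction 5/6 replicate 3, neither past the test.

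Occupancy was also computed for fraction 5/6, as the counterpart of the pellet. The same genes as in the pellet were called, 5 higher and 1 lower of 8 in WT (55.9% of genes called, 24.7% higher and 31.2% lower) and 5 higher and 2 lower in FMR1 KO (62.9% called, 29.8% and 33.1%). In WT the log2 values by edgeR were 1.16 for Cyfip1, 1.04 for Cyfip2, 0.95 for Nckap1, 0.94 for Wasf1, 0.63 for Abi1 and -1.01 for Wasf2, and in FMR1 KO they were 0.50, 1.72, 0.82, 0.48, 0.71 and -0.96. These positive values turned negative with library size alone (-0.90 for Cyfip1 in WT). Without the library labelled WT fraction 5/6 replicate 3, Cyfip1 was at 0.63 (adjusted p = 0.0111) and the same 6 were called (60% of genes). Wasf3, which did not pass in WT, was at 1.18 with that library and at -0.57 without it. The WT calls of Cyfip1 (1.15 to 1.24) and Cyfip2 (0.94 to 1.15) were lost when any WT RNA-seq library was left out (adjusted p of 0.0562 to 0.117). With low nuclease RPFs against standard RNA-seq (55.7% of genes called), the WT calls of Wasf1 (0.41, adjusted p = 0.139, edgeR), Abi1 (0.097, adjusted p = 0.391), Cyfip1 (-0.16, adjusted p = 0.571) and Cyfip2 (-0.26, adjusted p = 0.345) were lost, the last 2 with the other sign.

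In FMR1 KO the call of Cyfip2 was lost without any RNA-seq library or without fraction 5/6 replicate 1 (0.92), and that of Cyfip1 without RNA-seq replicates 1 or 3 or fraction 5/6 replicate 2 (0.27). With low nuclease RPFs against standard RNA-seq (55.3% of genes called), the FMR1 KO calls of Cyfip1 (0.023, adjusted p = 0.892, edgeR), Cyfip2 (-0.17, adjusted p = 0.199) and Abi1 (0.84, adjusted p = 0.171) were lost. Abi2 was at -0.41 (adjusted p = 0.0615) in WT and lower by -0.64 (adjusted p = 0.00270) in FMR1 KO. In WT it passed as lower with low nuclease RPFs against standard RNA-seq (-0.73, adjusted p = 0.00260, edgeR), with library size alone (-2.53) and with all standard groups in a single fit (-0.26, adjusted p = 0.0406). Wasf3 in FMR1 KO was at 2.61 (SE 1.38, adjusted p = 0.134), at 3.13 without replicate 3 of fraction 5/6 (adjusted p = 0.0419) and at -1.42 without replicate 1 (adjusted p = 0.000609).

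Occupancy in the low nuclease libraries rests on RNA-seq libraries of uneven quality. In the pellet 7 of 8 members were called in WT (52.4% of genes called) and 3 of 8 in FMR1 KO (28.8%), or 4 of 8 in FMR1 KO (38.5%) without the RNA-seq libraries led by 10 genes. Cyfip1 (1.57 in WT and 1.74 in FMR1 KO, edgeR), Nckap1 (2.27 and 2.38) and Wasf1 (1.18 and 1.28) were higher in both genotypes. In FMR1 KO the pellet calls of Cyfip2 (0.59, adjusted p = 0.195, edgeR), Wasf2 (-0.69, adjusted p = 0.0614), Abi1 (0.60, adjusted p = 0.193) and Abi2 (-0.054, adjusted p = 0.879) were lost there. In fraction 5/6, 5 of 8 were called in WT (57.2%) and 3 of 8 in FMR1 KO (34.3%), or 4 of 8 (46.3%) without those libraries. Cyfip1 and Cyfip2 were not among them, at -0.026 and -0.12 in WT and at 0.29 and -0.18 in FMR1 KO.

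Whether loss of FMRP changed any member was tested in 5 ways, and no member passed edgeR's test in any of them. In RNA-seq 0 of 8 were called (0.0736% of genes), with 1 at an unadjusted p under 0.05, and DESeq2 called 0. The log2 fold changes of FMR1 KO over WT lay between -0.05 (Cyfip1) and 0.27 (Abi2, SE 0.10, adjusted p = 0.999, edgeR). In pellet abundance 0 of 8 were called (0.015%), with 1 at an unadjusted p under 0.05, and DESeq2 called 0. That gene was Wasf1, at 265, 268 and 269.8 CPM in WT and 217, 161 and 247 CPM in FMR1 KO, where the groups did not overlap (-0.34, SE 0.11, adjusted p = 0.867, edgeR). In the low nuclease pellet its value had the other sign (0.25, SE 0.13, adjusted p = 0.907).

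Wasf3 was higher in every FMR1 KO pellet library (94.0, 97.8 and 98.1 CPM) than in every WT pellet library (30.3, 71.7 and 74.9 CPM), with a log2 fold change of 0.79 (SE 0.37, adjusted p = 0.867, edgeR). In the low nuclease pellet it reached 7591 CPM in FMR1 KO replicate 3, while the other FMR1 KO libraries had a mean of 39.8 CPM. WT was at 39.8 to 51.3 CPM in that series, so the groups were not apart there. In the standard pellet Cyfip1 and Cyfip2 were at -0.10 (SE 0.10) and 0.16 (SE 0.28), and Nckap1 at -0.31 (SE 0.15). In fraction 5/6, 0 of 8 were called (0% of genes), with 1 at an unadjusted p under 0.05 (Wasf1, -0.45), and DESeq2 called 0. Cyfip1 was at -0.85 (SE 0.43) there, and at -0.24 (SE 0.24) without the library labelled WT fraction 5/6 replicate 3. Wasf3 was at 1.35 (SE 1.68) and Cyfip2 at 0.68 (SE 0.64) in fraction 5/6. With each library left out in turn they ranged from -2.64 to 3.21 and from -0.08 to 1.11.

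For the change of pellet occupancy between the genotypes, 0 of 8 were called (0.0673%), with 1 at an unadjusted p under 0.05 (Wasf1, -0.50), and DESeq2 called 0. Nckap1 was at -0.41 (SE 0.19) and Abi2, called in FMR1 KO and not in WT, at -0.29 (SE 0.14, adjusted p = 0.801), so that a difference between the genotypes was not shown for it. None of the paralogue ratios differed between FMR1 KO and WT pellets by the exact permutation test, where 3 against 3 libraries cannot give a p below 0.1. Wasf1 over Wasf3 (log2 difference -1.21) and Wasf1 over Wasf2 (-0.40) were lower in every FMR1 KO library than in every WT library, with that smallest p (adjusted p = 0.141), while Wasf1 over Wasf2 was at 0.40 in the low nuclease libraries.

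The remaining genes of the pathway were called in both directions in WT pellet occupancy, in 5 lists chosen with earlier results of these data known, and the shares over all genes were 31.2% higher and 34.3% lower. Of the 3 other WAVE complex subunits, Nckap1l, the blood cell form of Nckap1, was higher (1.07), and Brk1, the small subunit (-1.93), and Abi3 (-0.82) were lower. Of 10 genes of the Arp2/3 complex, the actin nucleator that WAVE activates, 5 were higher and 4 lower, among them Arpc1a (1.89), Arpc3 (1.66) and Actr2 (1.17) against Arpc1b (-1.73), Arpc5 (-1.25) and Arpc5l (-1.10). Of 21 genes that carry Rac signals, 13 were higher and 5 lower. Srgap2, which turns Rac off (1.69), and Pak2, a kinase that Rac binds (1.12), were higher, and the tyrosine kinases Abl1 (-1.11) and Abl2 (-0.76) and the adaptor Elmo1 (-0.89) were lower.

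Of 13 other WASP family genes and partners, 7 were higher and 3 lower. Washc2 (1.82), Washc4 (1.52) and Washc1 (1.18), subunits of the endosomal WASH complex, were higher, and the WASP-binding Wipf1 (-1.36), Wipf2 (-1.17) and Wipf3 (-0.79) were lower. Of 14 genes of FMRP relatives, CYFIP partners and cap binding, 8 were higher and 5 lower. Fxr1, a relative of Fmr1 (1.44), Fmr1 itself (1.20) and the helicase Eif4a2 (1.06) were higher, and the cap-binding Eif4e (-2.24) and Eif4e2 (-1.05) and the initiation factor Eif4g2 (-1.76) were lower. The median was -0.82 for the other subunits, 0.18 for Arp2/3, 0.40 for Rac signals, 0.73 for the WASP family and 1.00 for the last list, against -0.11 for all genes, and with library size alone the median of all genes was -2.13. In FMR1 KO pellets the numbers higher and lower were 1 and 2, 3 and 4, 11 and 5, 6 and 3, and 7 and 6 for the 5 lists in this order, against 31.9% higher and 35.2% lower over all genes. Between the genotypes Fmr1 was the only gene of the 5 lists that was called, lower in FMR1 KO by -1.90 in RNA-seq, -3.72 in pellet abundance and -1.84 in pellet occupancy.

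The genes whose mean levels over the 12 groups followed a member most closely were sought among 13725 genes, as a description with no test, since all share the same libraries. For Cyfip1 they were Copa (Pearson r = 0.996), Xpo5 (0.993) and Ap3b1 (0.993). For Cyfip2 they were Lrba (0.976), Zfp14 (0.958) and Ints12 (0.957), and for Wasf1 Mtmr7 (0.989), Cog2 (0.988) and Ppm1k (0.988). Nckap1 was the fifth closest to Wasf1 (0.986), and Cyfip1 and Cyfip2 correlated with each other at 0.852.

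Peaks of RPF coverage, as called by the authors in each of the 12 standard RPF libraries, were then read for the transcripts of the members. The lists held 11389 to 36435 peaks each. On the transcript that the count table lists for each gene there were 171 peaks, of which 165 had the midpoint of their interval in coding sequence, and they fell on 4 of the 8 transcripts. Wasf3 had 75 peaks in 10 libraries, Nckap1 55 in 4 libraries, Abi2 22 in 7 and Cyfip1 19 in 7. The listed transcripts of Cyfip2, Wasf1, Wasf2 and Abi1 had none, but other transcripts of Cyfip2, Wasf1 and Abi1 did, with 220, 30 and 3 peaks.

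The peaks were uneven between libraries. Cyfip1 had 9, 2 and 1 peaks in the WT pellet and 3, 1 and 2 in the FMR1 KO pellet, and in fraction 5/6 it had a peak only in the library labelled WT fraction 5/6 replicate 3 (1 peak). Nckap1 had peaks in FMR1 KO pellet replicate 2 (4), WT fraction 5/6 replicate 2 (26) and FMR1 KO fraction 5/6 replicates 1 and 3 (7 and 18), and none in the WT pellet. Its lowest counts in these groups were 3543, 2132 and 1946, each in a library with peaks. Its highest there were 6778, 6127 and 5007, each in a library without peaks, and the WT pellet held 5992 to 10458. Cyfip1 had most peaks in the WT pellet at its highest count there (3476). Why peaks were missing at high counts was not tested, and a missing peak is not read as a lack of RPFs. Wasf3 had 13, 6 and 4 in the WT pellet and 9, 1 and 5 in the FMR1 KO pellet, and 70 of its 75 peaks were coding although coding sequence makes up 28.98% of the transcript, with the other 5 in the 5′ UTR. Peak heights are not scaled between libraries and were not compared.

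The deposited intervals, up to 81 nt wide on the members, do not give the highest point of a peak, which the study compared, so midpoints stand in for it here and the shared sites depend on that choice. No midpoint was shared within 6 nt by all 3 WT pellet libraries, by all 3 FMR1 KO pellet libraries or by all 6 on any transcript of the members. Of transcripts with a peak, 18%, 16.1% and 3.12% had such a shared site. Nckap1 had no peak to share in the WT pellet. With 1 pellet library left out there was a shared site on the listed transcripts in WT (without replicate 2 or 3) and in FMR1 KO (without replicate 2). The sites with midpoints within 6 nt in 4 or more of the 12 libraries are shown with 29 bases of GRCm38 sequence (GENCODE M21 transcripts) on the strand of the mRNA and capitals on the 5 bases at the centre of the midpoints. Such a site was on 2 of the 7 transcripts of the members with a peak, against 47% of all transcripts with a peak.
Wasf3 codon 358: tcagcacaaactGCCTTcgtcagccctct
Cyfip2 codon 506: agaaaaagaatgTCCTTatcagcgttctg
Cyfip2 codon 306: ctgcaggtggtaCCCCTtttcggcgacat
Cyfip2 codon 874: ttcacccaagaaCCACAacgggataagcc

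The Wasf3 site lies in exon 9 of 10 at chr5:146468291-146468319, and had a peak in 4 libraries, namely WT pellet replicates 1 and 2, WT fraction 5/6 replicate 1 and the library labelled WT fraction 5/6 replicate 3. The Cyfip2 sites are on ENSMUST00000093165, which is not the transcript of the count table. The site at codon 506 was found in 7 libraries, more than any other site of the members: all 3 FMR1 KO fraction 5/6 libraries, FMR1 KO pellet replicates 1 and 2, WT fraction 5/6 replicate 1 and the library labelled WT fraction 5/6 replicate 3. Its 29 bases start in exon 14 of 31 and run into the next exon, over chr11:46260941-46261458 on the minus strand. The site at codon 306 (exon 10, chr11:46272669-46272697, minus strand) was found in 4 libraries, 2 of them pellets, and that at codon 874 (exon 23, chr11:46240041-46240069, minus strand) in 4 libraries, 3 of them pellets.

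**Figure D5:**
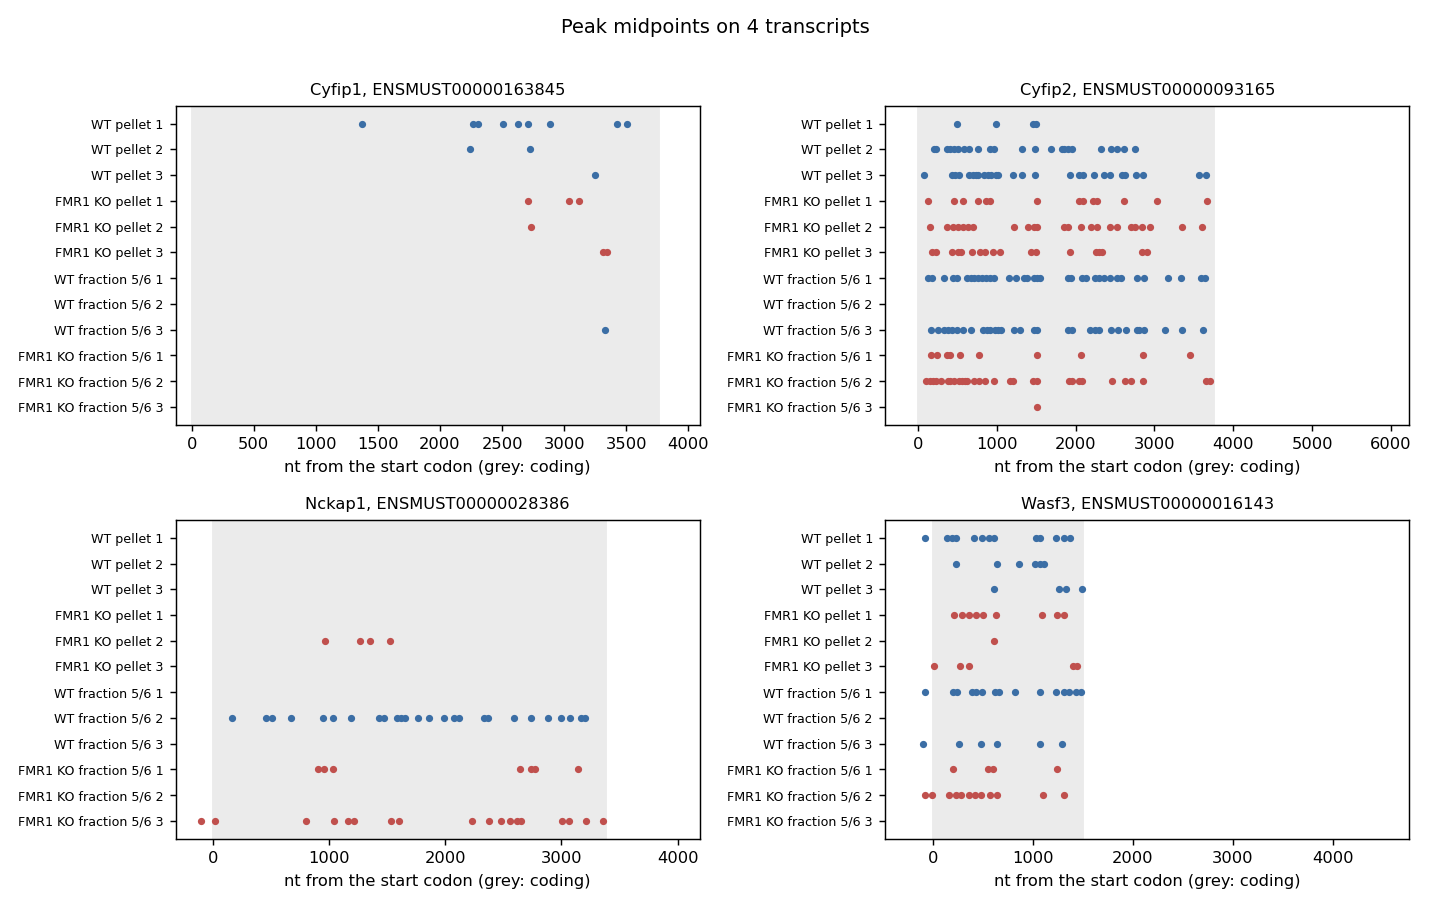
Midpoints of called peaks along 4 transcripts, in nt from the start codon, with a line for each of the 12 standard RPF libraries and coding sequence in grey. Cyfip2 is shown on a transcript other than that of the count table; its 220 peaks are spread over the coding sequence in 11 libraries, while the 55 peaks of Nckap1 come from 4 libraries.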

How the data were processed

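The authors trimmed reads with cutadapt 2.10, removed non-coding RNA with Bowtie2 2.3.5, aligned to GRCm38 with STAR 2.7.8a, removed duplicates with Picard and SAMtools 1.19.2, and counted per gene with featureCounts 2.2.0. The deposited counts are whole numbers without normalization. The peak intervals and heights of RPF coverage (signal) were made by the authors per library on Ensembl transcripts, and the heights are unscaled. The linker barcodes separate samples, so duplicates were removed by position, which can merge distinct RPFs of an abundant mRNA, and counts are not counts of molecules. The labels give each library a replicate number, and p-values measure the spread between these libraries. By the paper's methods, RPF replicates of the same condition were combined after linker ligation and went through reverse transcription, rRNA depletion and PCR together. A difference between these pools cannot be told apart from a difference between RPF groups, and the p-values do not hold it.

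The 8 genes, lists and alternatives were chosen with earlier results of these data known. Protein-coding genes (16561, biotypes of GENCODE M21, with 27 identifiers without a match left out) were filtered with filterByExpr, normalized by TMM and tested with edgeR 4.0.16 (limma 3.58.1, R 4.3.3), with Benjamini-Hochberg adjustment over all genes tested and a threshold of 0.05. SEs are the log2 fold change over the root of F. Genotype differences of occupancy and enrichment are interactions. DESeq2 1.42.0 was an alternative, with library size alone, no filter, all biotypes, Cdk8 left out, all groups in a single fit, the replicate number as a block, the low nuclease libraries and each library left out. A further alternative, without 3 low nuclease RNA-seq libraries, was chosen after seeing the data. Scripts were tested on simulated data. CPM leaves out Cdk8 from the total, and levels between genes are CPM per kilobase of transcript (RNA-seq) or coding sequence (RPFs). Ratios of paralogues used counts plus 0.5 and two-sided exact permutation tests (scipy 1.17.1, pandas 2.3.3, numpy 2.4.6, Python 3.11.15, matplotlib 3.10.9). Genes named were the 8 members, Fmr1, from each list the 3 called genes of smallest p in each direction, and the 3 genes most correlated with Cyfip1, Cyfip2 and Wasf1. A gene that this rule names is not reported here. Shared stretches are identical runs of 28 bases in other genes' transcripts. The 2 unnamed columns of the count table hold no values.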

Additional observations from a re-analysis of the deposited data

Results flagged for a closer look

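Some values lay outside the comparisons above. In the low nuclease libraries Wasf3 reached 7591 CPM in FMR1 KO pellet replicate 3, against 37.2 to 51.3 CPM in the other 5 pellet libraries of that series. Abi1 reached 285.9 CPM in low nuclease FMR1 KO fraction 5/6 replicate 2, against 77.9 to 85.6 CPM in the other 5 fraction 5/6 libraries of that series. Peaks were called on transcripts other than those listed in the count table: 220 on ENSMUST00000093165 of Cyfip2, 30 on ENSMUST00000019975 of Wasf1 and 3 on ENSMUST00000123948 of Abi1. Wasf1 had most of its peaks in FMR1 KO fraction 5/6 replicates 1 and 3 (5 and 13) and WT fraction 5/6 replicate 2 (7). The cause of these values was not tested.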

How the results depend on the processing

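Of 1404 recomputed values of the members, 1312 kept their side of the threshold without a change of sign that involved a call. The list of called members was the same in 11 of 11 comparisons with no filter on low counts, with all biotypes and with Cdk8 left out, in 10 of 11 with DESeq2 (enrichment in FMR1 KO had 2 calls) and in 9 of 11 with all standard groups in a single fit (1 call lost and 1 gained). With library size alone it was the same in 6 of 11, and the signs turned in occupancy. Pellet occupancy was then -0.66 (Cyfip2), -0.49 (Nckap1), -0.79 (Wasf1) and -1.29 (Abi1) in WT, and -0.23 (Cyfip1), -1.01 (Cyfip2), -1.10 (Nckap1), -1.53 (Wasf1), -2.19 (Wasf3) and -1.71 (Abi1) in FMR1 KO. Fraction 5/6 occupancy was -0.90 (Cyfip1), -1.19 (Cyfip2), -1.15 (Nckap1), -1.18 (Wasf1) and -1.48 (Abi1) in WT, and -1.28, -0.35, -0.97, -1.29 and -1.06 in FMR1 KO. By construction, this scaling keeps Cdk8 in the totals and leaves the difference in makeup between RPF and RNA-seq libraries in the values.

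The low nuclease libraries gave the same list in 5 of 11 comparisons, and the cause was not tested. They gave 3 calls in pellet occupancy of FMR1 KO, 3 in enrichment of each genotype and 3 in fraction 5/6 occupancy of FMR1 KO. Signs turned, counting changes that involved a call, for Wasf2 (0.38) in WT enrichment, Cyfip2 (0.79) in FMR1 KO enrichment, Cyfip1 (-0.026), Cyfip2 (-0.12) and Wasf3 (-4.03) in WT fraction 5/6 occupancy, and Cyfip2 (-0.18) and Wasf3 (-4.21) in that of FMR1 KO. A further 23 values of the members changed sign with no call on either side. With the standard RNA-seq libraries in place of the low nuclease ones, WT fraction 5/6 occupancy was -0.16 (Cyfip1), -0.26 (Cyfip2) and -1.31 (Wasf3), and that of FMR1 KO -0.17 (Cyfip2) and -1.61 (Wasf3). Without the 3 RNA-seq libraries led by 10 genes, an alternative chosen after seeing the data, there were 4 calls each in pellet and fraction 5/6 occupancy of FMR1 KO, Abi2 was at 0.24 in FMR1 KO pellet occupancy, Cyfip2 at -0.086 in WT fraction 5/6 occupancy, and Cyfip1 at -0.012, Cyfip2 at -0.13 and Wasf3 at -0.76 in that of FMR1 KO. In the low nuclease libraries the ratio differences (exact permutation tests) were 0.68 for Cyfip1 over Cyfip2, 0.16 for Wasf1 over Wasf2 and -0.43 for Abi1 over Abi2, which newly passed (adjusted p = 0.0364), between pellet and fraction 5/6, and 3.00 for Wasf1 over Wasf3 between pellet and RNA-seq, which no longer passed (adjusted p = 0.174).

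With each library left out, the number of called members was 6 to 7 (WT) and 7 (FMR1 KO) in pellet occupancy, 0 to 1 and 1 to 2 in enrichment, and 4 to 6 and 5 to 8 in fraction 5/6 occupancy. Wasf3 in FMR1 KO ranged from -2.89 to 1.63 in enrichment and from -1.42 to 3.13 in fraction 5/6 occupancy, and it turned sign in both without FMR1 KO fraction 5/6 replicate 1. The pellet against fraction 5/6 difference was 0.75 (without FMR1 KO fraction 5/6 replicate 1) to 1.46 for Cyfip1 over Cyfip2 and 0.44 to 0.57 for Wasf1 over Wasf2, and sites shared by the pellet libraries numbered 0 to 1. Libraries of the same replicate number correlated at -0.15 to 0.24 over 9 pairs of groups. With 3 libraries a group this cannot settle whether the numbers pair samples, and the main tests took libraries as independent. With the replicate numbers as a block the list was the same in 10 of 11 comparisons, and Cyfip2 in fraction 5/6 occupancy of FMR1 KO was lost (1.38, adjusted p = 0.0511 by edgeR), leaving 6 calls. Depth limits Wasf2 most, at under 16 CPM in all standard RPF libraries.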
